A study of Mus musculus with 2 samples.

Results

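The enzymes that turn threonine into glycine, break glycine down and pass its carbon to folate were examined in siKlf4 ES cells: Tdh, Gcat, Gldc, Amt, Gcsh, Shmt1, Shmt2, Mthfd1 and Mthfd2. These 9 genes were chosen by name, with their ratios of ES cells over a reference pool in view, and 6 of them had a probe among the 10149 genes named on the arrays. Amt, Shmt1 and Shmt2 had no probe that could be named through its accession and are not analysed here. The cells were EB5 mouse ES cells, grown without feeders and transfected with Klf4 siRNA together with the plasmid pCAGEGFP-IP, which served for selection. They were cultured for 24 h and then kept in puromycin for another 24 h before total RNA was taken. RNA of the siKlf4 ES cells (n = 2, arrays 1 and 2) was labelled with Cy3, and the reference on both arrays was Universal Mouse Reference RNA in Cy5, an equal mix of RNA from 11 cell lines. These lines came from embryo, fibroblast, kidney, liver, macrophage, B and T lymphocyte, mammary, muscle, skin and testis sources. Every ES sample carried the siRNA and the plasmid, so the arrays set siKlf4 ES cells against other cell types and hold no estimate of what the siRNA did.

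Threonine dehydrogenase, the product of Tdh, oxidises threonine in mitochondria, and the ligase encoded by Gcat splits the resulting keto acid into glycine and acetyl-CoA. The glycine cleavage system then breaks glycine into carbon dioxide, ammonia and a carbon unit held by tetrahydrofolate. Gldc encodes its decarboxylase, Gcsh the lipoate-bearing carrier protein and Amt the aminomethyltransferase. Serine hydroxymethyltransferases, encoded by Shmt1 in the cytosol and Shmt2 in mitochondria, exchange serine and glycine and load folate in the same step. The products of Mthfd1 in the cytosol and Mthfd2 in mitochondria change the oxidation state of folate-bound carbon units, which are used for purines and thymidylate. Mouse ES cells are known for a high demand for threonine that depends on Tdh.

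Each measured enzyme was read by 1 probe of 60 bases, and no other gene probe on the arrays had the same sequence. The first 30 bases of each probe are shown because every value for a gene rests on that oligonucleotide alone.
Tdh: agagaccaaagattacatgttagggttttc
Gcat: acggttgtcttctcaaatggcagatgacat
Gldc: tcactaatgtgcctgatctgtcacagcata
Gcsh: ttaatgttttacttagtgactgctagtttt
Mthfd1: tgaggataaaatcaggattattgcacagag
Mthfd2: gaggcctatttgtttttgaaaaacaaaaca
The GC content of the full probes ran from 28.3% (Gcsh) to 45.0% (Gldc and Mthfd1), with a median of 41.7% over all 21052 gene probes. The Gcsh probe was poor in G and C, since only 2.32% of gene probes had less. The place of the probes in their transcripts was not determined here. The 9 genes lie on 9 different chromosomes.

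The arrays are described first by what touches these probes. Spots without mouse sequence, the 162 negative controls, set a limit of 155 and 178 units above local background in the ES channel on arrays 1 and 2 (their 95th percentile), and of 40.9 and 58.4 units in the reference channel. All 6 enzyme probes lay above these limits in both channels on both arrays, and none was saturated. On the log2 scale of ES over reference, single negative control spots ranged from -0.26 to 0.52, so ratios inside that range are also seen without any mouse target. Of 8 measured ES cell markers, 7 were called higher in the siKlf4 ES cells and Fgf4 was not (0.00), and all 5 fibroblast markers were called lower, by the limma rule given for the pathway lists. Markers of other cell types were also read above that limit in the ES channel on both arrays: 5 of 5 for fibroblasts, 3 of 4 for macrophages, 3 of 3 each for B and T cells, 2 of 2 for germ cells and 1 of 2 for muscle. Some of these readings were near the limit, such as Dazl at 158 and 182 units, Col1a1 at 178 and 190 and Cd79a at 189 and 220. Others were well above it, such as Lck at 1356 and 1433. Besides the fibroblast markers, 3 of 4 macrophage markers and 1 of 3 B cell markers were called lower, and the germ cell marker Ddx4 was called higher (1.56). Both hepatocyte markers, Apoa1 and Ttr, stayed under the limit in the ES channel, and their summed signal in the reference was also low, at 83.7 and 113 units. Whether cells of these types were present in the ES culture, and what part they have in the enzyme ratios, was not tested. Klf4, the siRNA target, had log2 ratios of 0.43 and 0.59, and Pou5f1, Sox2 and Lefty1 of the series title averaged 2.86, 5.69 and 3.14.

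Gldc and Tdh stood far above the reference pool in siKlf4 ES cells, Mthfd1 was several times higher, and Mthfd2, Gcat and Gcsh exceeded the pool by less than 2-fold. Each of the 6 enzymes had a ratio above 0 on both arrays, and 3 of 6 reached a log2 ratio of 1, or 2-fold, on both. Over all 21028 probes, 43.9% were above 0 on both arrays and 4.59% reached 2-fold higher on both. Another 4.9% were 2-fold lower on both, where 0 of the 6 enzymes stood. The median log2 ratio was 1.30 for the enzymes and -0.01 for all probes. Since these ratios chose the genes, they are a description and carry no test. In such bulk RNA, a larger share of cells that use a gene and more RNA per cell cannot be told apart, and a pool of cell lines does not show which line gave its signal.

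On the threonine route, the Tdh probe gave 6243 and 8696 units above local background in the siKlf4 ES cells, against 600 and 797 units in the reference. The ES channel was brighter on both arrays by a wide margin. The log2 ratios were 3.50 and 3.32, with a mean of 3.41 ± 0.12 (SD, n = 2), or 10.6-fold higher in siKlf4 ES cells. Only 32 of 21028 probes had a higher mean ratio. Gcat, which acts on the product of Tdh, read 580 and 631 units in siKlf4 ES cells and 313 and 333 units in the reference. Here the channels lay close together on both arrays. Its log2 ratios were 0.77 and 0.65 (mean 0.71 ± 0.085, SD, n = 2), or 1.63-fold higher in siKlf4 ES cells. Both values exceeded the highest negative control spot. These consecutive enzymes therefore had unequal ratios, with Tdh above Gcat by 2.73 and 2.67 log2 units on arrays 1 and 2.

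Within the glycine cleavage system the measured subunits also stood apart. The Gldc probe gave 9550 and 12754 units in siKlf4 ES cells, against 526 and 544 units in the reference. Its log2 ratios of 4.28 and 4.40 (mean 4.34 ± 0.084, SD, n = 2) correspond to 20.2-fold, and 8 probes on the arrays stood higher. Gldc had the highest ratio of the 6 enzymes on both arrays. The Gcsh probe read 345 and 379 units in siKlf4 ES cells and 217 and 211 units in the reference. The reference reading differed little between arrays. Gcsh had log2 ratios of 0.31 and 0.33 (mean 0.32 ± 0.018, SD, n = 2), the lowest of the 6, and both lay inside the range that negative control spots covered. The ratio of Gldc exceeded that of Gcsh by 3.97 and 4.06 log2 units on arrays 1 and 2.

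**Figure D1:**
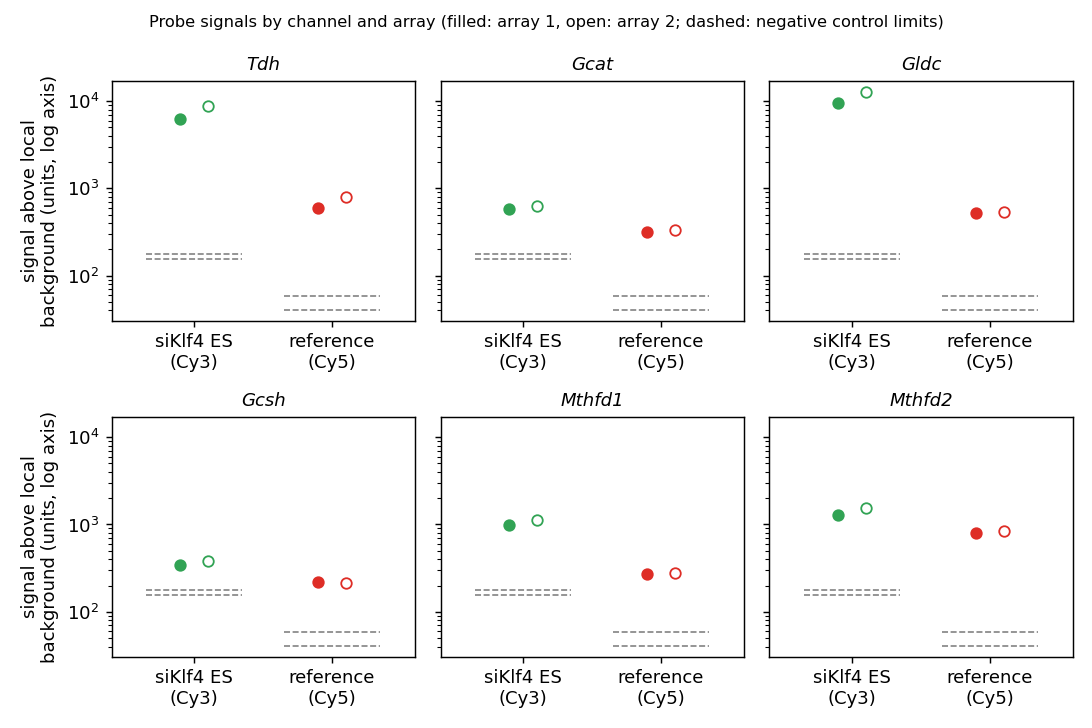
Signal above local background (arbitrary units, log axis) of each enzyme probe in the Cy3 channel of siKlf4 ES cells and, to its right, the Cy5 channel of the reference, with array 1 filled, array 2 open and dashed lines at the negative control limits of each channel. Tdh and Gldc show the widest gap between channels, and all points lie above the limits.

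Of the folate enzymes, Mthfd1 read 993 and 1123 units in siKlf4 ES cells, against 268 and 275 units in the reference. The ratio was nearly the same on both arrays, at 1.82 and 1.79 (mean 1.81 ± 0.020, SD, n = 2), or 3.50-fold higher in siKlf4 ES cells, with 263 probes above it. Mthfd2, the mitochondrial dehydrogenase and cyclohydrolase, read 1271 and 1537 units in siKlf4 ES cells and 804 and 851 units in the reference. Its log2 ratios were 0.80 and 0.78 (mean 0.79 ± 0.0095, SD, n = 2), or 1.73-fold, and were higher than the negative control spots on both arrays. The ratio of Mthfd1 exceeded that of Mthfd2 by 1.03 and 1.01 log2 units.

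**Figure D2:**
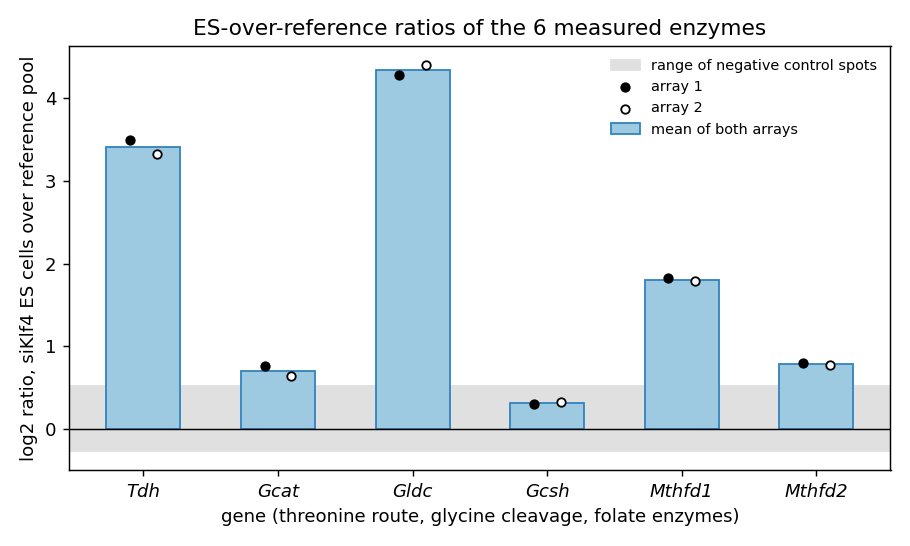
Log2 ratio of siKlf4 ES cells over the reference pool for the 6 enzymes: bars give the mean of both arrays, points the single arrays, and the grey band the range of the negative control spots. Gldc (4.34) and Tdh (3.41) stand highest, Mthfd1 follows at 1.81, and Gcsh (0.32) lies inside the band.

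Ordered by mean ratio, the enzymes ran Gldc, Tdh, Mthfd1, Mthfd2, Gcat and Gcsh, and the order was the same on both arrays. Gldc and Tdh were separated by 0.78 and 1.08 log2 units, and Tdh and Mthfd1 by 1.68 and 1.53. Mthfd2 and Gcat were hardly apart, by 0.03 and 0.14 log2 units (mean 0.08 ± 0.075, SD, n = 2), which is about the size of their spread, and they changed places with negative control spots as the background (0.79 for Mthfd2 and 0.84 for Gcat). Gcat and Gcsh differed by 0.46 and 0.31. Without background correction, where the scanner offset stays in both signals, Gldc was 12.9-fold and Mthfd1 2.12-fold higher in siKlf4 ES cells.

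**Figure D3:**
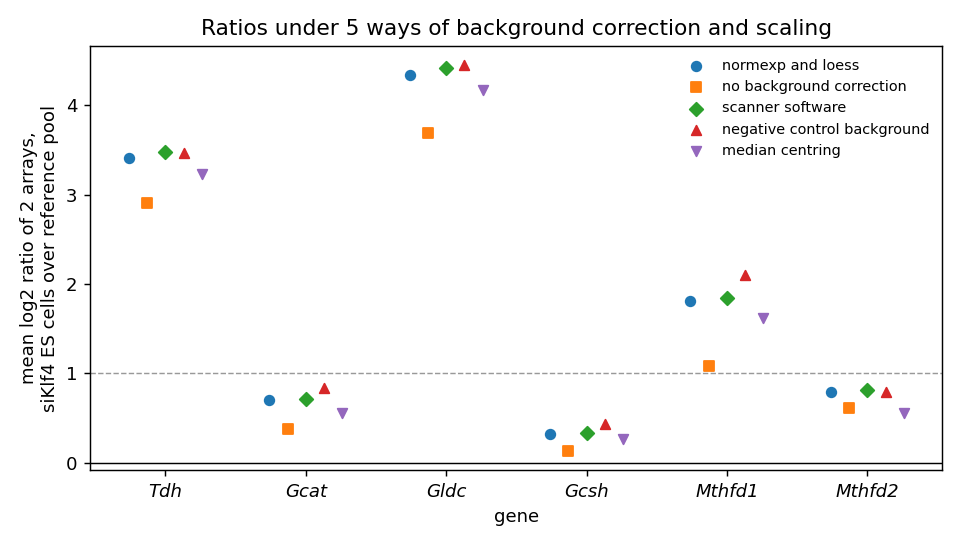
Mean log2 ratio of siKlf4 ES cells over reference for each enzyme (2 arrays) under 5 combinations of background correction and scaling, with a dashed line at 2-fold. Gldc, Tdh and Mthfd1 lie above the line in each, and the other 3 lie below it in each.

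The arrays differed most for Tdh. Its log2 ratio was 0.18 higher on array 1 than on array 2, a gap larger than that of 90.4% of all probes, where the median gap was 0.06. After loess and scaling between arrays, the Tdh signal on array 2 was higher than on array 1 by 0.17 log2 units in the ES channel and by 0.35 in the reference channel. The reference RNA was the same material by its label, and 94.6% of probes moved less in that channel. The cause of the shift was not tested. For Gldc, the shift was 0.12 in the ES channel and 0.01 in the reference channel. Mthfd2 was the steadiest, with ratios 0.01 apart, less than for all but 12.8% of probes.

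The genes nearest to the highest and lowest enzyme over the ratios of both arrays (n = 2) were named by distance in log2 units. Nearest to Gldc were Morc1 at a distance of 0.07, Upp1 at 0.12 and Tcl1 at 0.14, with mean ratios of 4.38, 4.29 and 4.43. Around Gcsh, where ratios are crowded, Actr1b lay at 0.0041, Banp at 0.0055 and Psg19 at 0.0059, all with mean ratios of 0.32. Such nearness over 2 arrays says only that the ratios were alike.

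The promoter table of RefSeq (build GRCm38.p6) held 8 of the 9 genes, without Tdh, as windows from 250 bases before to 50 bases after the gene start. The 250 bases before the starts of Gldc and Gcsh are shown because these subunits of one system had the highest and the lowest ratio. Capitals mark CACCC, the short core bound by Klf factors, or its complement GGGTG. Gldc lies on the minus strand (chr19:30175442-30175691) and so does Gcsh (chr8:116993499-116993748).
Gldc: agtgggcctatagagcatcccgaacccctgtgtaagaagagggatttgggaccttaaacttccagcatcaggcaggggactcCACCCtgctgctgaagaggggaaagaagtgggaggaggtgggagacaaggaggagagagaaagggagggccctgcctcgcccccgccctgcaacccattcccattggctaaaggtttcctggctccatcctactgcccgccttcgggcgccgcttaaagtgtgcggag
Gcsh: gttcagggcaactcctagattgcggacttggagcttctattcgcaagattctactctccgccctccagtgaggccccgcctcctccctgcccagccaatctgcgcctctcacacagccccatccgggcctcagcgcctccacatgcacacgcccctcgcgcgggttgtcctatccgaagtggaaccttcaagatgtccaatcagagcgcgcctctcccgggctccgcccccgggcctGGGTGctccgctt
CACCC was found on either strand in the windows of 5 of the 8 genes (Gldc, Gcat, Gcsh, Amt and Shmt1) and in 57.5% of all 32851 windows. Counted from the gene start, it began at position -168 in Gldc and at -13 in Gcsh, there on the other strand and with another match after the start. The octamer ATGCAAAT of Oct factors, ACAAAG of Sox factors and TGATGNAAT of Atf4 were in 0 of the 8 windows, searched on both strands, and in 1.74%, 18.7% and 0.965% of all windows. The E-box CACGTG, which reads the same on both strands, was found in Gcat and in 7.15% of all windows. GC content of the windows ran from 42.7% for Shmt2 to 66.3% for Gcsh (median of all windows 52.7%), and the Gldc window held 10 CG dinucleotides against 24 for Gcsh. A match is a description of these letters and not a site.

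Other genes of the pathway were taken from 7 lists with 67 measured genes and tested against the reference with limma, a gene being called at an adjusted p under 0.05, at least 2-fold and the same sign on both arrays. In all, 9 of the 67 genes (13.4%) were called higher in siKlf4 ES cells and 2 (2.99%) lower, while 56 were not called. Over all 21028 probes, with or without a gene name, the same rule called 5.08% higher and 5.19% lower. The share over named genes alone is not given here. The median log2 ratio of the 67 genes was 0.21, against -0.01 for all probes. Most called genes came from the folate uptake, reduction and cycle list (17 measured genes) or the methionine cycle, polyamine and transsulfuration list (12). Of the 7 lists, these held the most measured genes.

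Of 17 measured genes of folate uptake, reduction and the folate cycle, 4 were higher, 0 lower and 13 not called, at a median of 0.40. The folate receptor Folr1 read 1362 and 1445 units in siKlf4 ES cells, against 258 and 244 units in the reference. It stood at 2.35 ± 0.022 (SD, n = 2; limma, adjusted p = 6.18e-07). Gart, an enzyme of purine synthesis that takes up formyl groups from folate, gave 1004 and 1144 units in siKlf4 ES cells and 233 and 240 units in the reference. Its log2 ratio was 1.99 ± 0.011 (SD, n = 2; limma, adjusted p = 9.23e-07). Without background correction Folr1 stood at 1.47 and Gart at 1.17. Qdpr, which recycles the pterin cofactor of aromatic amino acid hydroxylases, was at 1.27 ± 0.062 (limma, adjusted p = 4.72e-06). Of the genes that were not called, Atic, which uses formyl groups at a later step of purine synthesis, stood at 0.79. Mthfd1l, the mitochondrial synthetase next to Mthfd2, stood at 0.67, and the mitochondrial formyl folate dehydrogenase Aldh1l2 at -0.74.

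In the methionine cycle, polyamine and transsulfuration list, 4 of 12 genes were higher, 0 lower and 8 not called, at a median of 0.36. Cth, the cystathionine lyase that ends transsulfuration, was highest at 1.64 ± 0.094 (SD, n = 2; limma, adjusted p = 3.08e-06). Mat2a, which makes S-adenosylmethionine, read 14909 and 19200 units in siKlf4 ES cells and 5940 and 6498 units in the reference, a log2 ratio of 1.40 ± 0.0073 (limma, adjusted p = 2.35e-06). The polyamine genes Amd1 (decarboxylase of S-adenosylmethionine) and Sms (spermine synthase) stood at 1.39 and 1.27, and Amd1 was not called without background correction (0.97). Ahcy, which clears S-adenosylhomocysteine, was at 0.93 and not called. Mtrr, the reductase that keeps methionine synthase active, is uncertain, since its brighter probe gave 0.33 and its other probe 1.14.

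The lipoate and glycine cleavage support list, which holds the makers of the lipoyl arm of the Gcsh protein, had 1 of 5 genes higher, 0 lower and 4 not called, at a median of 0.14. The called gene was Nfu1, an iron-sulfur carrier needed for lipoate synthesis, at 1.13 ± 0.051 (SD, n = 2; limma, adjusted p = 6.17e-06). The lipoate synthase Lias stood at 0.51. Dld, which encodes the dihydrolipoyl dehydrogenase shared by the cleavage system and other complexes, stood at 0.02, so that of the 3 measured subunits of the system Gldc alone was above 2-fold.

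In serine synthesis and breakdown, 0 of 5 genes were called higher and 0 lower by limma at 2-fold. At an adjusted p under 0.05 with no limit on size, 1 was higher and 3 were lower, where the same rule took 31.7% of all probes as higher and 31.5% as lower. Phgdh, the first enzyme of serine synthesis, read 6377 and 7498 units in siKlf4 ES cells, against 12165 and 12197 units in the reference. It lay below the pool on both arrays, at -0.86 ± 0.014 (SD, n = 2). Psph, the phosphatase that ends the route, stood at 0.33, inside the range of the negative control spots. Srr (-0.35) and Sdsl (-0.30) lay just below that range. Sdsl read 176 and 204 units in the ES channel, near the limits of 155 and 178 units. Of 11 transporter genes, 0 were higher, 1 lower and 10 not called (median -0.08). The called gene was the glycine transporter Slc6a9, with 762 and 948 units in siKlf4 ES cells, against 2406 and 2446 units in the reference. Its log2 ratio was -1.48 ± 0.051 (SD, n = 2; limma, adjusted p = 2.6e-06). Slc25a38, the mitochondrial glycine carrier, stood at 0.70, and the neutral amino acid transporters Slc1a5 and Slc1a4 at -0.62 and -0.36.

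Among 11 genes that use glycine or threonine, 0 were higher, 1 was lower and 10 were not called, at a median of 0.21. Gatm, which uses glycine for creatine synthesis, was called lower at -1.14 ± 0.12 (SD, n = 2; limma, adjusted p = 1.49e-05), but not without background correction (-0.41). Its partner Gamt stood at -0.74 and Sardh, which turns sarcosine into glycine, at -0.88. In the ES channel, Gatm read 176 and 227 units, Gamt 192 and 207, and Sardh 205 and 215. These readings lie near the negative control limits of 155 and 178 units. With background from the negative control spots, Gamt and Sardh were called lower. Gars, the glycyl-tRNA synthetase, was just under 2-fold at 0.96, and the threonyl-tRNA synthetase Tars stood at 0.67. Of 7 transaminases and relatives, 0 were called in either direction by limma at 2-fold, and at an adjusted p under 0.05 without the limit, which took 31.7% and 31.5% of all probes, 4 were higher and 1 lower. Bcat1 (0.74), Got1 (0.66) and Bcat2 (0.59) were the largest of these and Alas1 followed at 0.21. Alas1 and the lower gene, Kyat1 (-0.13), lay inside the range of the negative control spots.

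**Figure D4:**
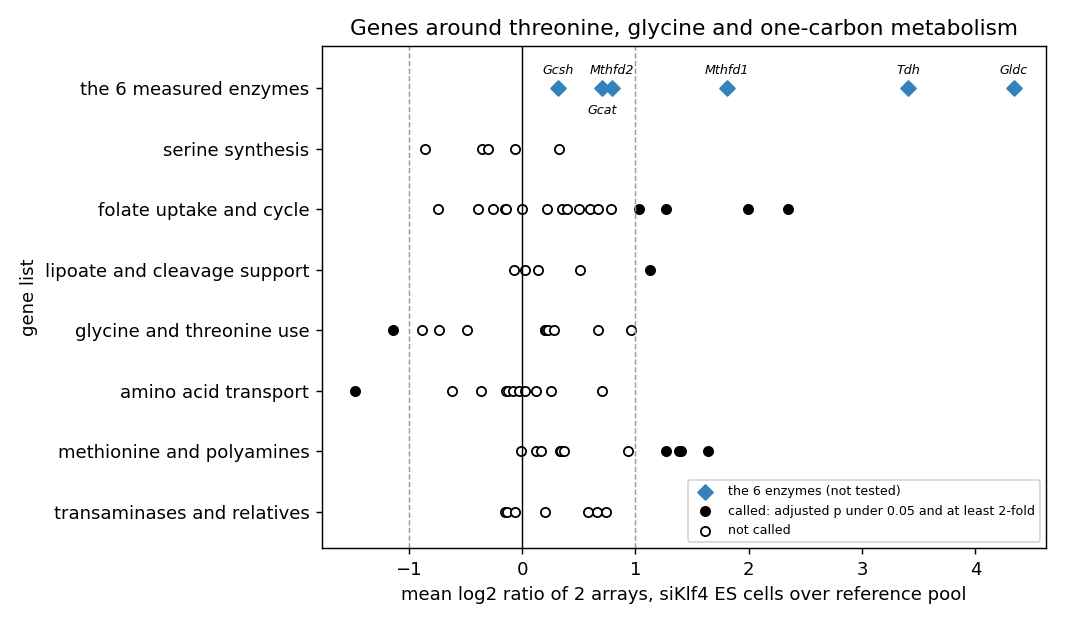
Mean log2 ratio (2 arrays) of siKlf4 ES cells over reference for the 6 enzymes (diamonds, not tested) and for the genes of 7 pathway lists (circles, filled where called by limma), with dashed lines at 2-fold. Filled circles on the right belong to the folate, lipoate and methionine lists, and those on the left are Slc6a9 (-1.48) and Gatm (-1.14).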

How the data were processed

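RNA from 2 samples of siKlf4 EB5 mouse ES cells, numbered 1 and 2 in the labels, was measured on 2 two-colour oligonucleotide arrays. The authors' arrays were read with version A.7.5.1 of Agilent Feature Extraction, per the file headers, and the deposited values are intensities in arbitrary units, both as scanned and after that software's background subtraction and LOWESS dye normalization. The deposited log10 ratio is that of the red (Cy5, reference) over the green (Cy3, ES cells) processed signal. How the authors made the log10 values of the deposited series table is unstated in the sources used here. They match the mean of the log10 red processed signals minus the log10 ratio of the array, within 2e-04 for 99.6% of probes on either array, so it carries the same ratios.

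The background of the mean signals was corrected in R 4.3.3 with limma 3.58.1 (normexp on the local background median, offset 50) and normalised by loess within each array, control spots at weight 0. After 24 probes with outlier flags were left out, 21028 remained. Ratios are log2 of ES cells over reference, and their correlation between arrays across probes was 0.987. With both arrays of 1 dye orientation and scanned separately, neither dye nor scan could be fitted. Any dye effect of a probe is therefore part of its ratio on both arrays. The limma test cannot tell it apart from a difference between the ES cells and the pool. Of 21052 gene probes, 10422 received 1 symbol (10149 genes) through RefSeq transcript accessions without version, and 10630 received none. A gene with more than 1 probe is represented by its brightest.

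Members, lists and the rule for named genes (all members, up to 4 genes of each list with called genes and the largest absolute ratios first, and the 3 genes nearest to the highest and the lowest member) were chosen with earlier results of these data known. The members were chosen from the ES-over-reference ratios, so these are given without a test. List genes were tested against 0 with limma (lmFit and eBayes, 1 residual and 4.38 prior degrees of freedom, Benjamini-Hochberg over all 21028 probes) and called at an adjusted p under 0.05, a ratio of at least 2-fold and the same sign on both arrays. Some genes of the lists are counted but not reported here by name. The fit was tested on simulated data. The spread between the arrays may be technical, since the labels name no separate cultures, and 2 arrays limit the precision. Other background corrections, scalings, probe rules and filters, and each array alone, were tried.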

Additional observations from a re-analysis of the deposited data

How the results depend on the processing

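Over the other settings that were run, each of the 6 enzymes had a mean ratio above 0, and Gldc, Tdh and Mthfd1 were at 2-fold or more on both arrays. Their median log2 ratio was 0.85 without background correction, 1.33 with the scanner software's processed signals, 1.47 with the negative control spots as background and 1.09 with median centring, against 1.30 as reported. It ran from 1.29 to 1.31 with either array alone, and the count of enzymes at 2-fold was 3 with either. Called genes of the pathway lists numbered 38 higher and 16 lower with no limit on size, against 9 and 2 as reported. There were 7 higher and 1 lower without background correction, and 11 and 5 with background from the negative control spots. Median centring gave 8 higher and 2 lower. The counts with no limit on size include ratios inside the range of the negative control spots, such as Slc7a5 (0.12) and Slc3a2 (-0.14). Bhmt2 counted there as higher at 0.34, although it lay under the negative control limits in both channels on both arrays. Over all probes, no background correction gave 510 higher and 467 lower, background from the negative control spots 1759 and 2229, and no limit on size 6673 and 6628, against 1068 and 1092 as reported. Single arrays, counted by fold alone with no test, gave 9 higher and 2 lower pathway genes on either array. No paired analysis was possible because the samples form 1 group. The negative control filter kept 18548 probes and changed none of the 2-fold counts given here. The comparison of member proteins was not run.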
